A study of Danio rerio with 4 samples.

Results

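tcap, myoz3a, desma and mustn1b are 4 zebrafish genes of striated muscle, of 32520 genes counted in tails of asxl1-/- and asxl1+/+ embryos. They were picked by name, as genes of the Z-disc or linked to stretch, from the 294 genes that the study lists as differing between these genotypes in these same libraries. That the 4 genes differ is therefore how they came to be here and is not a finding. Their values are given as a description, and no p-value is given for them.

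Expression was measured by RNA-seq in 4 libraries, 2 from asxl1-/- embryos (replicates A and B) and 2 from asxl1+/+ embryos (replicates A and B). All embryos came from matings between asxl1+/- fish, were on the AB background, received no treatment and were taken at 3 days post fertilization (dpf). Each library was made from a pool of about 20 tails, which include the caudal hematopoietic tissue where embryonic blood cells expand. The mutant fish descend from CRISPR/Cas9 editing that the paper describes as truncating the C-terminal end of Asxl1, a chromatin regulator. The labels do not say which edited allele the pools carried. The paper made 2 alleles and states that its data are of the larger deletion where nothing else is specified. A tail pool holds muscle, skin, notochord, vessels and blood together. Fewer muscle cells and less RNA per muscle cell cannot be told apart in it. Nothing in the labels says that the replicates came from separate clutches, so p-values measure only the spread between these pools.

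The sarcomere, the contractile unit of striated muscle, is bounded at each end by a Z-disc, where actin filaments of neighbouring sarcomeres are anchored by alpha-actinin. Telethonin, the product of tcap, caps the ends of titin molecules at the Z-disc, and myozenins bind alpha-actinin and the phosphatase calcineurin there. Desmin forms the intermediate filaments that tie Z-discs to each other and to the cell membrane. The Z-disc bears load and is regarded as a place where muscle senses stretch.

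In asxl1-/- replicate A 19423797 counts were assigned to genes and in replicate B 20027260, against 22963847 for asxl1+/+ replicate A and 26281738 for replicate B. Expression is given as CPM, counts per 1000000 after TMM scaling, whose factors lay between 0.990 and 1.01. asxl1 itself (ENSDARG00000036956, GRCz11 chromosome 23 from 30730121 to 30752553) was at 57.2 and 57.6 CPM in asxl1-/- and 65.4 and 65.3 CPM in asxl1+/+. The difference was -0.19 ± 0.076 (SE) as a log2 fold change of asxl1-/- over asxl1+/+ (log2FC), with an adjusted p of 1.0 in edgeR's quasi-likelihood test. Both asxl1-/- libraries lay below both asxl1+/+ libraries, and the unadjusted p in that test was 0.035. Of all genes tested, 3.08% had an unadjusted p below 0.05. By qRT-PCR the paper found less asxl1 in mutant tails, and it proposes nonsense-mediated decay as a possible cause. The direction was the same here, and decay was not tested. Counts summed over a whole gene do not show a small edit, so this level alone does not settle the genotype labels. The libraries held muscle RNA throughout. The genes of a contractile list (actins, myosins, troponins and their partners) took 18.5% and 19.2% of the counts in asxl1-/- and 18.9% and 19.37% in asxl1+/+.

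tcap (ENSDARG00000007344) lies on chromosome 3 from 21240594 to 21242460 on the minus strand, with 2 exons and 1190 exonic bases. It had 495 and 462 counts in asxl1-/- replicates A and B, against 174 and 93 counts in asxl1+/+ replicates A and B. On the CPM scale these are 25.2 and 23.3 in asxl1-/- and 7.54 and 3.58 in asxl1+/+. Both mutant libraries were high and close together, and the genotypes did not overlap. The lower asxl1-/- library was 3.08 times the higher asxl1+/+ library. Means were 24.2 ± 1.37 CPM in asxl1-/- and 5.56 ± 2.80 CPM in asxl1+/+ (mean ± SD of 2 libraries), a log2FC of 2.14 ± 0.25 (SE). In the order of log2FC values from the highest down, tcap was number 4 of the 19970 genes that passed edgeR's filter on low counts. The spread lay in the wild type. The asxl1+/+ libraries differed 2.11-fold from each other and the asxl1-/- libraries 1.08-fold. Exact binomial 95% intervals, which cover counting error only, ran from 6.49 to 8.79 and from 2.86 to 4.34 per 1000000 counts in asxl1+/+ replicates A and B. The gap between these pools was therefore larger than counting error. Without asxl1+/+ replicate A the log2FC was 2.76, and without asxl1+/+ replicate B it was 1.68.

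mustn1b (ENSDARG00000089086) encodes a small nuclear protein of the musculoskeletal system, known in mammals for expression in developing and regenerating muscle and skeleton. The gene spans 18249809 to 18253111 on the minus strand of chromosome 11, with 3 exons and 917 exonic bases. The asxl1-/- libraries had 204 and 194 counts and the asxl1+/+ libraries 95 and 135. These gave 10.4 and 9.77 CPM in asxl1-/- and 4.12 and 5.19 CPM in asxl1+/+. Again the 2 genotypes were apart, with the lower asxl1-/- library at 1.88 times the higher asxl1+/+ library. Mean expression was 10.1 ± 0.436 CPM in asxl1-/- and 4.65 ± 0.759 CPM in asxl1+/+ (mean ± SD of 2 libraries), and the log2FC was 1.11 ± 0.16 (SE).

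myoz3a (ENSDARG00000067701), a myozenin gene, covers 923522 to 933630 on the plus strand of chromosome 14, with 5 exons and 4549 exonic bases. Counts of 205 and 244 in asxl1-/- stood against 200 and 154 in asxl1+/+, or 10.4 and 12.3 CPM against 8.67 and 5.92 CPM. The nearest libraries of the 2 genotypes, asxl1-/- replicate A and asxl1+/+ replicate A, differed only 1.2-fold. Their exact binomial 95% intervals, 9.16 to 12.1 and 7.54 to 10 per 1000000 counts, overlapped. myoz3a was thus the member whose separation was least clear of counting error. The means were 11.4 ± 1.31 CPM in asxl1-/- and 7.30 ± 1.94 CPM in asxl1+/+ (mean ± SD of 2 libraries). Its log2FC was 0.64 ± 0.18 (SE), or 0.39 without asxl1+/+ replicate B and 0.94 without asxl1+/+ replicate A.

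desma (ENSDARG00000058656), which encodes desmin, runs from 7515864 to 7539326 on the minus strand of chromosome 9, with 10 exons and 1854 exonic bases. It was by far the most highly counted member, with 8180 and 8737 counts in asxl1-/- and 8002 and 9448 counts in asxl1+/+. In CPM, asxl1-/- had 416 and 440 and asxl1+/+ had 347 and 363. The difference was small and the replicates were tight, so the genotypes stood apart by 1.15-fold at their nearest. Means of 428 ± 16.6 CPM in asxl1-/- and 355 ± 11.7 CPM in asxl1+/+ (mean ± SD of 2 libraries) gave a log2FC of 0.27 ± 0.058 (SE).

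**Figure D1:**
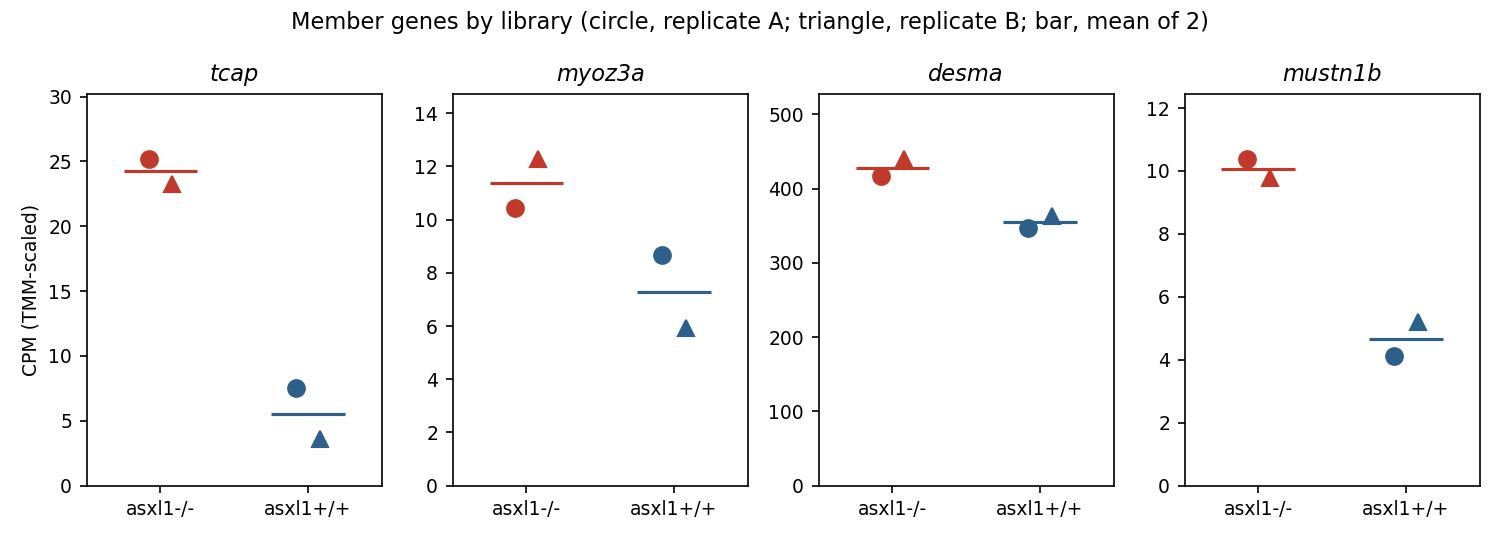
Expression of the 4 members in each library, in TMM-scaled CPM on linear axes that start at 0. asxl1-/- is on the left and asxl1+/+ on the right of each panel, circles are replicate A, triangles replicate B and bars the mean of 2 libraries. For tcap the asxl1-/- libraries lie at 25.2 and 23.3 CPM and the asxl1+/+ libraries at 7.54 and 3.58 CPM, and desma is the member whose genotypes are closest relative to its level.

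Sizes of difference thus ran from 2.14 for tcap through 1.11 for mustn1b and 0.64 for myoz3a to 0.27 for desma on the log2 scale. For all 4 members both asxl1-/- libraries were above both asxl1+/+ libraries. Of all genes tested, 15.4% had this arrangement. In edgeR's quasi-likelihood test at an FDR of 0.05, 1 of the 4 members, tcap, was called, where 0.0601% of all genes tested were called in either direction. Because the members were chosen on this contrast, nothing is read from either count. The wild-type libraries did not rank alike across members. tcap and myoz3a were lowest in asxl1+/+ replicate B, whereas desma and mustn1b were lowest in asxl1+/+ replicate A.

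Levels of different genes were compared per length, as TPM (counts per exonic kilobase, scaled to the same total in every library). In asxl1-/- the order was desma at 470 and 487 TPM, tcap at 44.3 and 40.1, mustn1b at 23.7 and 21.8, and myoz3a at 4.80 and 5.54, with no overlap between neighbours. In asxl1+/+ desma was again highest at 391 and 400 TPM and myoz3a lowest at 3.98 and 2.66. Between them tcap, at 13.2 and 6.14 TPM, and mustn1b, at 9.39 and 11.6 TPM, overlapped and could not be ordered. Over all libraries desma was number 243, tcap 3265, mustn1b 5151 and myoz3a 12923 by TPM among the 19970 genes tested. The member with the greatest difference, tcap, was therefore neither the most nor the least abundant of the 4. Its place over all libraries includes its higher levels in asxl1-/-.

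The members were also set against the contractile genes of the same library, so that a different share of muscle RNA in a pool drops out as far as those genes measure it. Counted per 1000000 contractile counts, there were 138 and 120 tcap counts in asxl1-/- and 40.1 and 18.3 in asxl1+/+. The same ratio for mustn1b was 56.7 and 50.4 in asxl1-/- and 21.9 and 26.5 in asxl1+/+. For myoz3a it was 57.0 and 63.3 in asxl1-/- and 46.1 and 30.3 in asxl1+/+, and for desma 2273 and 2268 in asxl1-/- and 1843 and 1856 in asxl1+/+. On this scale the genotypes did not overlap for any member, and the share of all genes with this arrangement was not counted. The members were chosen on this contrast, so nothing is read from that. actc1b alone had 1058362 of the 3599127 contractile counts in asxl1-/- replicate A. It is itself in the study's table, with a log2FC of -0.085, and its part in these ratios was not tested. When the libraries were scaled to the contractile genes in place of TMM, log2FC values were 2.16 for tcap, 1.14 for mustn1b, 0.67 for myoz3a and 0.30 for desma, while the median of all genes moved to 0.027.

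For each member but tcap, named relatives were taken from the count table, and these were not chosen for their difference. Relatives of tcap were not compared in this way. myoz3a was the least abundant of 5 myozenin genes. myoz1b averaged 361 TPM in asxl1-/- and 340 TPM in asxl1+/+, MYOZ1 201 and 198 TPM, and the MYOZ2 genes 105 and 101 TPM (ENSDARG00000012311) and 37.4 and 35.5 TPM (ENSDARG00000037266), in the same order of genotypes. The log2FC values of these 4 relatives were between 0.01 and 0.08, each with an adjusted p of 1.0 in edgeR's quasi-likelihood test. In CPM both asxl1-/- libraries were nevertheless above both asxl1+/+ libraries for myoz1b and both MYOZ2 genes, though not for MYOZ1. This arrangement held for 15.4% of all genes tested. myoz3a made up 0.675% and 0.785% of the TPM of the family in asxl1-/- and 0.585% and 0.394% in asxl1+/+. Its difference was therefore small beside the pool of myozenin transcripts.

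The other desmin gene, listed as DES (ENSDARG00000005221, chromosome 6), was at 8.89 and 5.59 TPM in asxl1-/- and 8.57 and 6.04 TPM in asxl1+/+. The genotypes overlapped fully, with a log2FC of -0.01 ± 0.22 (SE). desma held 98.1% and 98.9% of the TPM of this pair in asxl1-/- and 97.9% and 98.5% in asxl1+/+. mustn1a had 3 and 2 counts in asxl1-/- and 4 and 2 counts in asxl1+/+, too few to be tested. mustn1b was thus nearly the sole mustn1 transcript counted, with at least 93.9% of the pair in every library. Read pairs that map equally well to more than 1 place were not counted, and how far this lowers the counts of close paralogs was not tested. No other annotated gene overlaps the span of any of the 4 members.

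**Figure D2:**
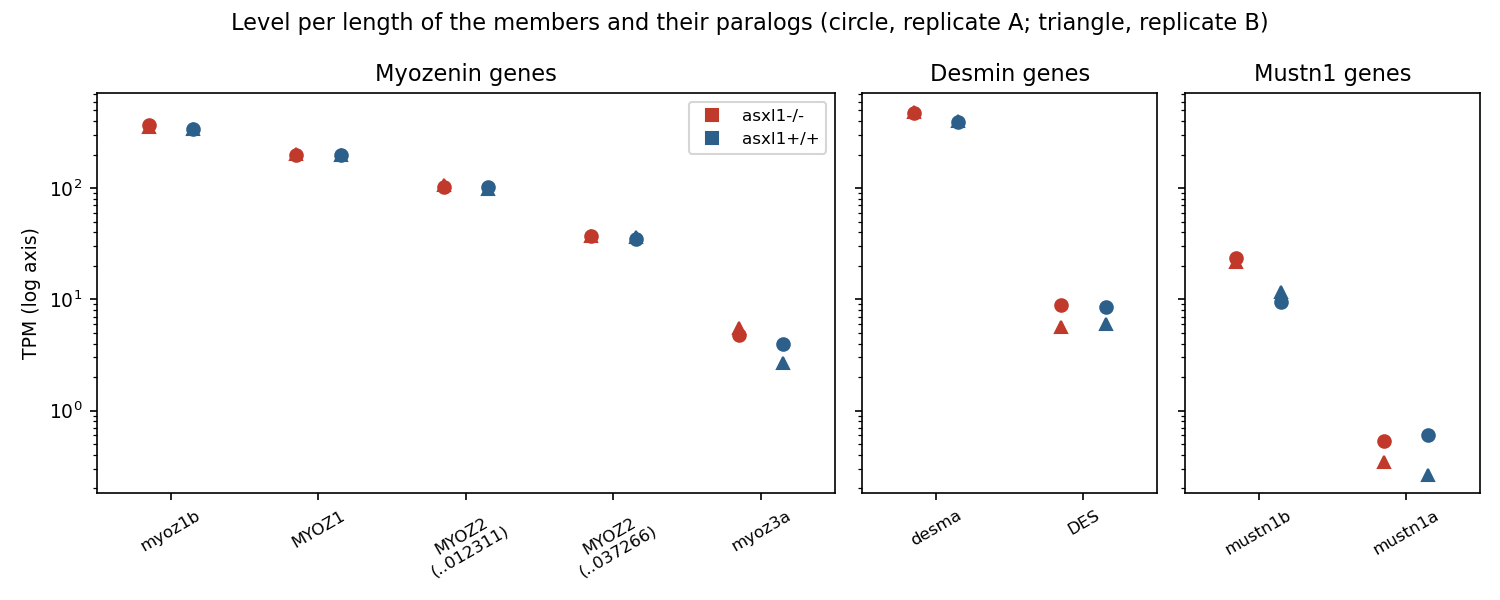
Level per length, in TPM on a log axis, of myozenin, desmin and mustn1 genes, with asxl1-/- to the left of asxl1+/+ for each gene and circles and triangles for replicates A and B. myoz3a, at 5.17 TPM in asxl1-/- and 3.32 TPM in asxl1+/+ on average, lies far below the other myozenin genes, whose genotypes nearly coincide. Full identifiers of the genes shortened on the axis begin with ENSDARG00000.

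A list of Z-disc and Z-disc-linked genes held 46 genes beside tcap and myoz3a, of which 41 passed the filter on low counts. Their log2FC values were between -0.23 and 0.46, and 26 of the 41 were within 0.1 of 0, as were 53.0% of all genes tested. With edgeR's quasi-likelihood test 0 of the 41 were called at an FDR of 0.05 and 4 had an unadjusted p below 0.05, as did 3.08% of all genes tested. The exact test, which called 0.265% of all genes, and DESeq2, which called 0.135%, also called 0 of the 41. The median was 0.06, against 0.00075 over all genes tested, and 31 of the 41 were above 0, where 50.2% of all genes tested were. Both asxl1-/- libraries were above both asxl1+/+ libraries for 16 of the 41, or 39.0%, against 15.4% of all genes. The same share was 26.2% of 42 contractile genes and 42.9% of 21 muscle energy and calcium genes. The study's table of called genes holds 3 of the 41 Z-disc, 13 of the 42 contractile and 10 of the 21 energy and calcium genes. Genes in that table were chosen on these libraries, so nothing is read from the order of these shares.

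actn3a and actn3b, alpha-actinins that cross-link actin, had log2FC values of 0.05 and 0.03. Those of ldb3a and ldb3b, PDZ and LIM domain proteins that bind alpha-actinin, were 0.10 and 0.10. myot, which encodes the actin-bundling protein myotilin, was at 0.01. CAPZB and capza1b, subunits of the protein that caps actin filaments in the Z-disc, were at -0.06 and 0.02. The filamin genes listed as FLNC were at 0.15 and 0.07, and NRAP, a scaffold of myofibril assembly, at 0.06. None of these passed the test, with adjusted p-values of 1.0 in edgeR's quasi-likelihood test.

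The 4 genes with an unadjusted p below 0.05 were all higher in asxl1-/-. Of these pdlim3b, xirp1 and capn3b are in the study's table of genes called on these libraries, and their direction is no independent evidence. pdlim3b, whose product binds alpha-actinin, had 8.45 and 8.91 CPM in asxl1-/- and 6.89 and 5.77 CPM in asxl1+/+, a log2FC of 0.46 ± 0.15 (SE). xirp1, an actin-binding protein of muscle attachment sites, had 30.5 and 30.1 CPM in asxl1-/- and 25.4 and 23.6 CPM in asxl1+/+, or 0.31 ± 0.094 (SE) on the log2 scale. capn3b, a calpain protease of muscle, had 107 and 108 CPM in asxl1-/- and 92.5 and 87.2 CPM in asxl1+/+, or 0.26 ± 0.072 (SE). The genotypes did not overlap for any of them, and each differed by less than myoz3a did. obscnb, an obscurin gene outside that table, had 221 and 226 CPM in asxl1-/- and 199 and 205 CPM in asxl1+/+, with a log2FC of 0.14 ± 0.061 (SE) and an adjusted p of 1.0. Its paralog obscna, at 10.1 and 8.01 CPM in asxl1-/- and 11.7 and 9.50 CPM in asxl1+/+, had the lowest value of the list at -0.23 ± 0.16 (SE).

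**Figure D3:**
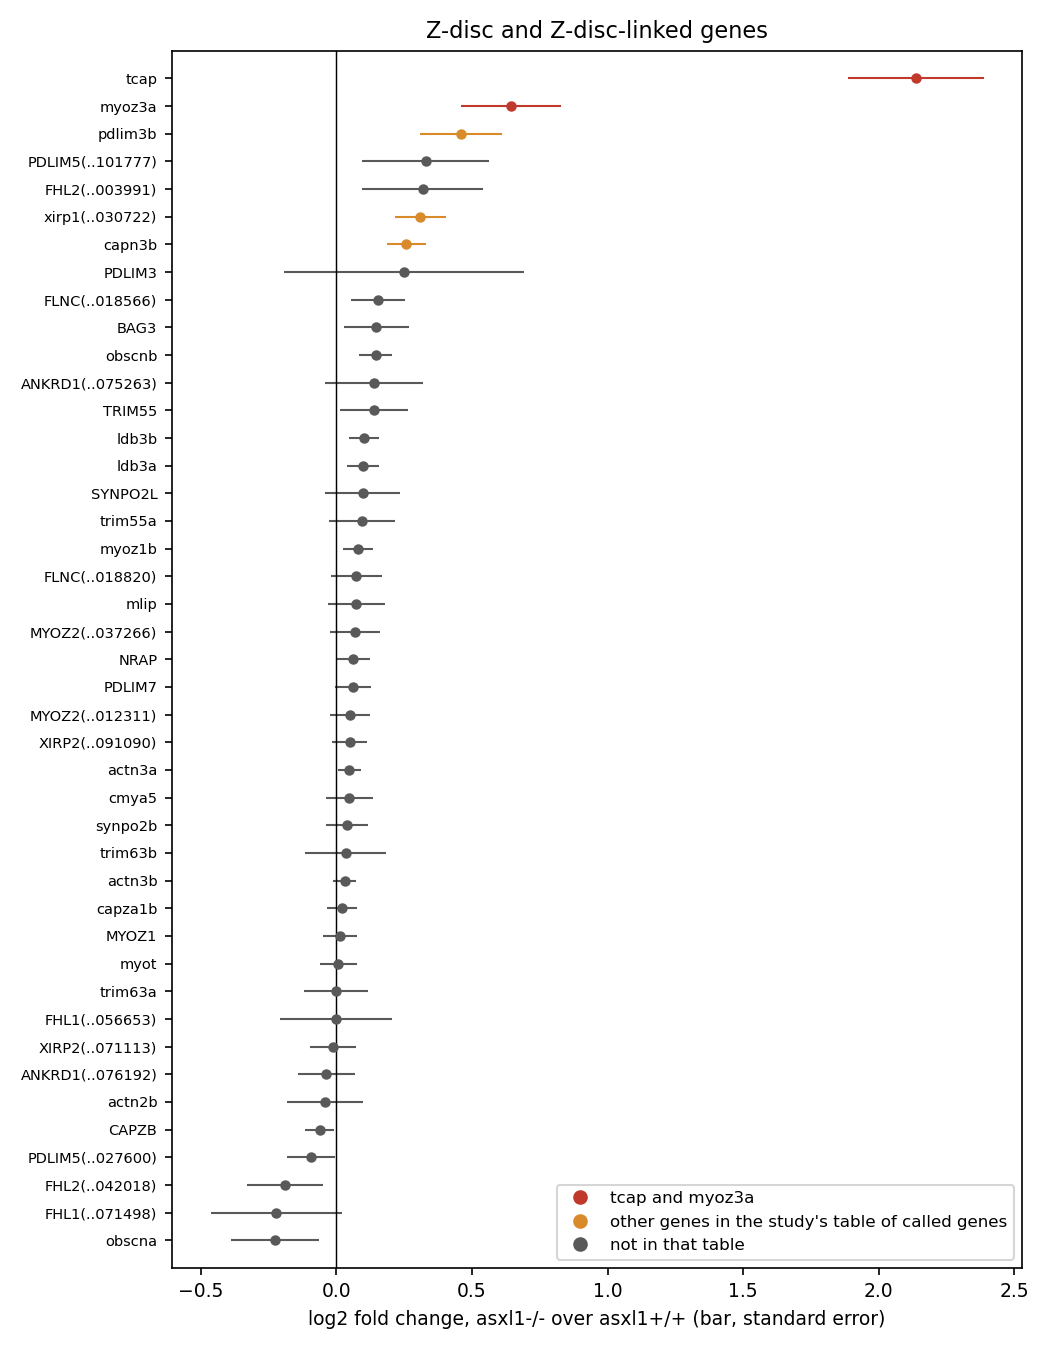
Log2FC of asxl1-/- over asxl1+/+ for tcap, myoz3a and the 41 other tested genes of the Z-disc list, each with its standard error. tcap at 2.14 and myoz3a at 0.64 head the list and were chosen on this contrast, the other genes lie between -0.23 and 0.46, and the 3 others in the study's table of called genes are in orange. Full identifiers of the genes shortened on the axis begin with ENSDARG00000.

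Around desma, the list of intermediate filament and small heat shock genes held 11 other tested genes with a median log2FC of 0.06 and 6 above 0, although the median was -0.06 without asxl1-/- replicate B. edgeR's quasi-likelihood test called 0 of them, with 3 at an unadjusted p below 0.05, whereas the exact test and DESeq2 each called 1. Of all genes tested, 3.08% had an unadjusted p below 0.05 in the quasi-likelihood test, while the exact test called 0.265% and DESeq2 0.135%. The 3 filament and heat shock genes with such a p are in the study's table. hspb1, a small heat shock chaperone, had 45.2 and 44.7 CPM in asxl1-/- and 30.9 and 28.7 CPM in asxl1+/+, a log2FC of 0.59 ± 0.087 (SE). hspb11 was at 12.1 and 13.0 CPM in asxl1-/- and 8.45 and 8.42 CPM in asxl1+/+, or 0.57 ± 0.13 (SE). hspb7, a chaperone known from heart and skeletal muscle, went the other way, with 2.34 and 1.56 CPM in asxl1-/- and 4.03 and 3.5 CPM in asxl1+/+, or -0.94 ± 0.24 (SE). The filament partners had smaller values. plecb, a plectin that links filaments to the Z-disc, was at 0.06, synm, which encodes synemin, at 0.13, and the VIM genes at -0.09 and -0.03.

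Around mustn1b, 17 other tested genes were listed as linked to stretch or load, 6 of which are also in the Z-disc list. They were spread to both sides, with 8 above and 9 below 0 and a median log2FC of -0.0025, or 0.03 with scaling to contractile genes. It was -0.11 without asxl1+/+ replicate A and 0.05, with 11 above 0, without asxl1+/+ replicate B. edgeR's quasi-likelihood test, the exact test and DESeq2 called 0 of them at an FDR of 0.05, and 6 had an unadjusted p below 0.05 in the quasi-likelihood test, all 6 in the study's table. Among all genes tested 3.08% had such a p. Of the 6, 3 were higher and 3 lower in asxl1-/-. dysf, which encodes the membrane repair protein dysferlin, had 42.5 and 40.6 CPM in asxl1-/- and 34.5 and 32.1 CPM in asxl1+/+, or 0.32 ± 0.088 (SE) on the log2 scale. nos1, the neuronal nitric oxide synthase, had a log2FC of 0.32 and flna, a filamin, one of 0.19. nppal, which encodes a natriuretic peptide, had 1.02 and 0.604 CPM in asxl1-/- and 2.17 and 1.5 CPM in asxl1+/+, or -1.16 ± 0.35 (SE). postna and tnc, matrix proteins periostin and tenascin C, were at -0.30 and -0.15.

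Other genes of the list fell on either side of 0. Of the ANKRD1 genes, which encode a titin-associated ankyrin repeat protein induced by stretch in mammalian muscle, ENSDARG00000076192 had 116 and 136 CPM in asxl1-/- and 117 and 142 CPM in asxl1+/+, a log2FC of -0.04 ± 0.10 (SE). ENSDARG00000075263 was at 4.94 and 6.65 CPM in asxl1-/- and 5.24 and 5.27 CPM in asxl1+/+, or 0.14 ± 0.18 (SE). CCN1 and CCN2, targets of the mechanically responsive factor YAP, were at 0.13 and 0.03. CSRP3 and ANKRD2 had 12 counts at most in any library and did not pass the filter. The FHL2 genes, which encode a LIM domain protein, went opposite ways, each without overlap. ENSDARG00000042018 was at 6.87 and 6.60 CPM in asxl1-/- and 7.59 and 7.77 CPM in asxl1+/+, or -0.19 ± 0.14 (SE). ENSDARG00000003991 was at 3.21 and 3.22 CPM in asxl1-/- and 2.17 and 2.96 CPM in asxl1+/+, or 0.32 ± 0.22 (SE). A p above the threshold does not show that levels were equal.

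Other groups of genes bear on what the pools held. Of all genes tested, 0.0601% were called by the quasi-likelihood test, 0.265% by the exact test and 0.135% by DESeq2. An unadjusted p below 0.05 in the quasi-likelihood test was found for 3.08% of them. Among 42 contractile genes the median was 0.02, or -0.05 without asxl1-/- replicate B and -0.03 without asxl1+/+ replicate A, and 23 were above 0, with 0 called by the quasi-likelihood test, the exact test or DESeq2 and 12 at an unadjusted p below 0.05 in the quasi-likelihood test. Myogenic regulators were similar, with a median of 0.04 over 16 genes, 0 called by these 3 tools and 1, pax7b at 0.44 and in the study's table, with an unadjusted p below 0.05 in the quasi-likelihood test. Of 11 heart muscle genes, MYL7, a cardiac myosin light chain, was at 0 counts in all 4 libraries, TNNT2 had 4 and 3 counts in asxl1-/- and 5 and 7 in asxl1+/+, and 6 could be tested, with a median of -0.06. TBX5 had 0 and 0 counts in asxl1-/- and 1 and 0 in asxl1+/+. nppb had 1 and 0 counts in asxl1-/- and 0 and 0 in asxl1+/+, and nppa 2 and 0 against 3 and 3. MYL7, TNNT2, TBX5, nppb and nppa were thus at or near 0 in pools of either genotype, but other genes of the list were not. myl4 had 357 and 315 counts in asxl1-/- and 348 and 470 in asxl1+/+. HAND2 had 215 and 198 counts in asxl1-/- and 286 and 285 in asxl1+/+. The quasi-likelihood test, the exact test and DESeq2 called 0 of the 6, and 2, nppal and tnnt2b, had an unadjusted p below 0.05 in the quasi-likelihood test.

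Genes listed as markers of the exocrine pancreas, an organ outside the tail, had a lower summed level in both asxl1-/- libraries. Of 17 such genes 11 were tested, all 11 had a log2FC below 0 and all 11 are in the study's table, and their summed level was 6.62 and 6.24 CPM in asxl1-/- and 16.4 and 41.7 CPM in asxl1+/+. For 10 of the 11 both asxl1-/- libraries were below both asxl1+/+ libraries. The share of all genes with this arrangement was not counted, and the 11 were chosen on these libraries, so nothing is read from it. The exception among the 11 was cpa5, at 1.48 and 2.11 CPM in asxl1-/- and 1.99 and 5.46 CPM in asxl1+/+. cpa5 is also grouped with neutrophil granule genes, so it is not a marker of the pancreas alone. ctrb1, a chymotrypsinogen, was at 0 counts in both asxl1-/- libraries and at 31 and 138 counts in asxl1+/+. The summed level was highest in asxl1+/+ replicate B, the library where tcap and myoz3a were lowest. The summed level of 4 neutrophil genes, also all in that table, was 73.3 and 62.9 CPM in asxl1-/- and 84.1 and 96.6 CPM in asxl1+/+. The part of these differences in the values of the 4 members was not tested. Many of the 15 AP-1 and immediate early genes listed encode transcription factors induced within minutes of a stimulus. Of the 15 genes, 13 were above 0 with a median log2FC of 0.31. That median was 0.13 without asxl1-/- replicate A and 0.51 without asxl1-/- replicate B. The quasi-likelihood test and DESeq2 called 0 of these 15 and the exact test 2, and 6, of which 5 are in the study's table, had an unadjusted p below 0.05 in the quasi-likelihood test. Of all genes tested, the quasi-likelihood test called 0.0601%, DESeq2 0.135% and the exact test 0.265%, and 3.08% had such a p. The summed AP-1 level was 168 and 134 CPM in asxl1-/- and 140 and 109 CPM in asxl1+/+. The A library was the higher of each genotype, and asxl1-/- replicate B lay below asxl1+/+ replicate A. Over 21 muscle energy and calcium genes the median log2FC was 0.04, with 0 called by these 3 tools and 10, all in the study's table, at an unadjusted p below 0.05 in the quasi-likelihood test. Erythroid genes had a median of 0.18 over 6 genes, with 0 called by the same tools and 0 at an unadjusted p below 0.05. Their median was 0.02 without asxl1+/+ replicate B and 0.36, with 4 of 6 at an unadjusted p below 0.05, without asxl1+/+ replicate A. Of 10 epidermis genes, with a median of 0.05, the quasi-likelihood test called 2, the mucin muc5.1 at 0.59 and the carbonic anhydrase ca6 at 0.57, both in the study's table. At an unadjusted p below 0.05 there were 7 of the 10, of which 4 were higher and 3 lower, and all are in that table. Over all genes tested these shares were 0.0601% called and 3.08% with such a p. The 3 lower genes, keratins, were krt5 at -0.37, krt17 at -0.31 and krt8 at -0.19.

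**Figure D4:**
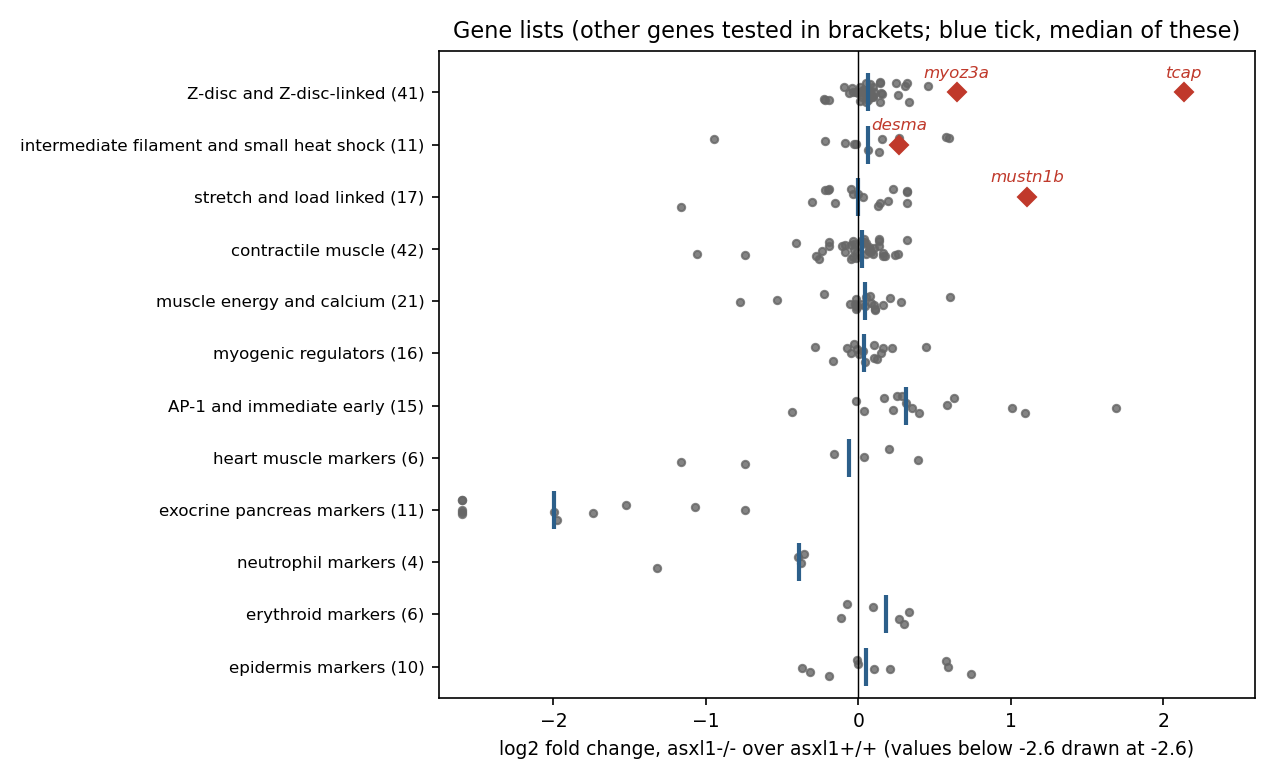
Log2FC of asxl1-/- over asxl1+/+ for the tested genes of 12 lists (grey), the median of each list without the members (blue tick) and the 4 members (red diamonds) in the list that holds them. The median is 0.06 for Z-disc genes and -0.0025 for stretch and load genes, while AP-1 genes have a median of 0.31 and pancreas genes one of -1.99.

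The genes whose levels moved most like each member over the 4 libraries were found by the Euclidean distance between log2 CPM profiles, each taken relative to its own mean, among 18146 genes with a mean of at least 1 CPM. Over 4 libraries such likeness is a description only. Nearest to tcap were si:ch73-390p7.2 at a distance of 0.59, fosb at 0.69 and fosab at 1.13. si:ch73-390p7.2, on chromosome 23, had 2.65 and 2.62 CPM in asxl1-/- and 0.433 and 0.231 CPM in asxl1+/+. fosb, an AP-1 factor, had 4.02 and 2.87 CPM in asxl1-/- and 1.34 and 0.808 CPM in asxl1+/+, and like tcap was lowest in asxl1+/+ replicate B. No other member was among the 3 nearest of any member. tcap stood farthest from the rest, at 1.47 from its nearest fellow member, while myoz3a and desma were 0.59 apart. The distance depends on the size of a gene's differences as well as on their pattern. The log2FC of tcap, the highest of the members and part of how they were chosen, therefore adds to its distance. The 3 genes nearest mustn1b were irx5b, CNIH3 and itga6l, those nearest desma were NCAPH, KCTD6 and PHYHD1, and near myoz3a lay si:rp71-1h20.2 and NR1H4. These genes lay within 0.27 of their member, and none is in the lists of muscle genes used here.

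The members lie on 4 different chromosomes, none of them chromosome 23, which carries asxl1. Within 500 kb on either side, 17 genes were tested near tcap, 31 near myoz3a, 18 near desma and 17 near mustn1b. edgeR's quasi-likelihood test called 0 of these neighbours at an FDR of 0.05, where it called 0.0601% of all genes, and 1, near desma, had an unadjusted p below 0.05, where 3.08% of all genes did. The exact test and DESeq2 also called 0. The nearest tested neighbour of tcap, SYNGR1, lies 9167 bases away and had 20.1 and 15.9 CPM in asxl1-/- and 18.5 and 19.9 CPM in asxl1+/+, a log2FC of -0.09 ± 0.13 (SE). acsl1b, 3564 bases from myoz3a, was at 0.03, ptprna, 9207 bases from desma, at -0.02, and tmcc1b, 5248 bases from mustn1b, at -0.04. Over all tested neighbours log2FC values ran from -0.45 to 0.25 near tcap and from -0.32 to 0.73 near myoz3a. Near desma they ran from -0.19 to 0.99 and near mustn1b from -0.12 to 0.48.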

How the data were processed

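The authors aligned reads with STAR to GRCz11, and assigned them with featureCounts 1.6.4 to the exons of Ensembl release 96, ignoring strand and leaving out pairs that fit several genes or places. They deposited raw counts of 32520 genes with exon positions. The paper's methods name poly-A selection and the labels total RNA. Genotype and replicate letter came from the labels.

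CPM and TPM were computed here from the deposited counts. In R 4.3.3, edgeR 4.0.16 filtered low counts by genotype (19970 genes kept), scaled by TMM and tested genotype by quasi-likelihood, with p-values adjusted by Benjamini-Hochberg over all genes tested and an FDR threshold of 0.05. The 2 libraries of a genotype differed by more than counting noise, with a chi-square per degree of freedom of 4.82 in asxl1-/- and 6.49 in asxl1+/+, and each was 1 replicate. The precision is limited by 2 libraries per genotype and, for tcap and mustn1b, by counts as low as 93 and 95. Members and lists were chosen with earlier results of these data known. Names came from the study's table of called genes and a table of Ensembl identifiers, where many names are in capitals. Matching by family name, without the letter of the copy, was added after these names were seen. Genes named are the members, genes of the Z-disc, filament and stretch lists, the 3 genes nearest each member by profile (1 is not reported here), and the examples with the largest change of other lists. Neighbours of the members, and the genes of other lists outside that rule, were named after their values were seen. Alternatives were the exact test, DESeq2 1.42.0, library size alone, scaling to contractile genes, no filter, at least 10 counts in every library, the replicate letter as a block, and each library left out. The counts of members and Z-disc genes called, and the Z-disc median, were followed through these alternatives only after seeing the data. Planned comparisons of protein and promoter sequences were not analysed here. The fits were tested on simulated data. Figures were drawn with matplotlib 3.10.9 in Python 3.11.15.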

Additional observations from a re-analysis of the deposited data

How the results depend on the processing

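The log2FC values of the 4 members kept their direction in all 13 alternatives. With 1 library left out they ran from 1.68 to 2.76 for tcap (2.76 without asxl1+/+ replicate A), from 0.95 to 1.29 for mustn1b (1.29 without asxl1+/+ replicate B), from 0.39 to 0.94 for myoz3a and from 0.23 to 0.31 for desma. The other alternatives moved them by less than the spread between replicates.

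At an FDR of 0.05, 12 genes were called (7 higher, 5 lower in asxl1-/-). The count was 53 with the exact test, 27 with DESeq2, 19 with no filter on low counts, 8 (6 higher, 2 lower) with scaling to contractile genes, and 9 to 80 with 1 library left out (67 without asxl1-/- replicate A, 80 without asxl1-/- replicate B). Deviations from the genotype means correlated at 0.270 across genes between the libraries of a letter, but the labels do not say what a letter shares. With the replicate block 301 genes (1.51%) were called, 275 when the filter was dropped as well, and 30 by DESeq2 under the block. The paper names edgeR's exact test at the same FDR threshold for its 294 genes, whereas that test called 53 here. The cause of these differences was not tested.

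Of the 4 members, 1 was called, and 2 with the exact test, DESeq2, library size alone, no filter, or DESeq2 with the replicate block. Of all genes tested, the main test called 0.0601%, and these alternatives 0.265%, 0.135%, 0.0701%, 0.0707% and 0.15%, in the same order. The members were chosen on this contrast, so nothing is read from how many of them were called in any setting. With the replicate block 4 were called, where 1.51% of all genes tested were. When the filter was dropped as well 4 were called, where 1.02% of all genes tested were. The median of the other Z-disc genes was 0.06, and 0.087 with scaling to contractile genes, when the median of all genes was 0.027. With 1 library left out it was 0.044 to 0.074. Among them 0 were called, against 4 with the replicate block and 2 when the filter was dropped as well. These 2 fits with the block called 1.51% and 1.02% of all genes tested. Under the block 13 of 42 contractile, 9 of 21 muscle energy and calcium, 6 of 17 stretch, 3 of 11 filament, 6 of 15 AP-1, 11 of 11 pancreas, 4 of 4 neutrophil, 7 of 10 epidermis, 2 of 6 heart, 2 of 6 erythroid and 1 of 16 myogenic genes were also called. By DESeq2 under the block these were 2 contractile, 1 energy, 1 filament, 1 pancreas and 4 epidermis genes. The block called 1.51% of all genes tested, and DESeq2 under the block 0.15%. The study's table of called genes holds 13 contractile, 10 energy, 6 stretch, 3 filament and 6 AP-1 genes. It also holds 11 pancreas, 4 neutrophil, 7 epidermis, 2 heart, 2 erythroid and 1 myogenic. These counts are therefore no independent evidence. With 1 library left out, list medians ran from -0.06 to 0.18 for filament, -0.05 to 0.07 for contractile, 0.0037 to 0.076 for energy, 0.013 to 0.081 for myogenic, -0.21 to -0.04 for heart and -2.93 to -2.01 for pancreas genes. These alternatives for the members and the Z-disc genes were chosen after seeing the data.

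With 1 library left out the lone library of a genotype is assumed to vary like the other group. Counts of 93 to 495 per library for tcap, mustn1b and myoz3a limit the precision of each library's level, and 2 pools per genotype give a poor estimate of the spread between pools.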
